A study of Mus musculus with 14 samples.

Results

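The 10 genes described here encode the lipid-sensing nuclear receptors of 3 families and the PGC-1 coactivators that bind them: the peroxisome proliferator-activated receptors Ppara, Ppard and Pparg, the retinoid X receptors Rxra, Rxrb and Rxrg, the liver X receptors Nr1h2 and Nr1h3, and Ppargc1a and Ppargc1b. They were chosen by name, for their family, from the 42687 genes of the count table, and all 10 were found there and passed the filter on low counts in every comparison. Each was followed over all 14 RNA-seq libraries, and KO was set against the controls of the same set.

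The libraries held poly(A) RNA of retinal pigment epithelium (RPE) cells, the pigmented monolayer behind the photoreceptors, pooled from both eyes of 1 male mouse of 3 months each, on the C57BL/6J strain. Set 1 held 3 KO mice (Best1-Cre+/-; Clic4f/f) and 3 WT mice, which carried neither the floxed allele nor Cre. Set 2 held 2 KO mice and 2 Ctrl mice (Clic4f/f, floxed without Cre), and set 3 held 2 KO mice and 2 CreCtrl mice (Best1-Cre+/-, Cre without the floxed allele). The sets are called the WT set, the Ctrl set and the CreCtrl set below. The Best1 promoter drives Cre in the RPE after birth, so that cells of other types in the preparation keep Clic4. The sets shared no library, so that the control genotype and the set cannot be told apart. The question was how loss of CLIC4, a chloride intracellular channel protein, alters the RPE transcriptome.

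The libraries held between 9828293 and 32384166 counts, and the 3 WT libraries, at 12363580 or fewer, were the shallowest. Clic4 was at 218 to 230 CPM (the usual depth-scaled count, here with TMM factors) in the WT mice, 62.1 and 71.4 in the Ctrl mice and 86.5 and 108 in the CreCtrl mice, against 9.78 to 33.9 in the 7 KO mice. It fell against WT (adjusted p = 3.33e-05) and CreCtrl (adjusted p = 0.0132), and against Ctrl the adjusted p was 0.333 (edgeR's quasi-likelihood test). All 10 RPE markers examined, among them Rpe65 and Best1, were above 0 in every group. Their summed level was 15056 to 22310 CPM in the WT mice, 45476 to 56283 in the 4 other control libraries and 69752 to 79965 in the 7 KO libraries. The 10 fibroblast markers summed to 8060 to 8252 CPM in the WT mice, 1245 to 2806 in the other controls and 126 to 787 in the KO mice, and 12 immediate-early genes to 14145 to 16920, 5171 to 11180 and 372 to 2413 CPM. Endothelial markers summed to 320 to 586 CPM in the WT mice, 152 to 370 in the other controls and 43.5 to 178 in the KO mice. For pericyte and smooth muscle markers the sums were 2251 to 2355, 529 to 811 and 327 to 490 CPM. Rod and myeloid sums did not follow these in every set. The mean rod sum was higher in KO than in control in the WT set (936 against 564 CPM) and the Ctrl set (1716 against 1079). So was the mean myeloid sum in the Ctrl set (1038 against 781), with libraries that overlapped in each. The libraries are bulk RNA, in which fewer cells of a type and less RNA per cell cannot be told apart.

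PPARs and LXRs bind DNA as heterodimers with an RXR. PPARs respond to fatty acids and their derivatives and act on genes of fatty acid oxidation, ketogenesis and lipid storage, and LXRs respond to oxysterols and act on cholesterol efflux and lipid synthesis genes. PGC-1 alpha and PGC-1 beta are recruited to these and other receptors and are known for raising mitochondrial and fatty acid oxidation genes. The RPE takes up lipid-rich outer segment tips each day and burns part of the fatty acids, which is why this circuit is studied there.

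On GRCm38 the PPAR genes lie at chr15:85734983-85802819 (Ppara), chr17:28232700-28301474 (Ppard) and chr6:115360951-115490399 (Pparg), all on the plus strand. The RXR genes lie at chr2:27676440-27762957 (Rxra), chr17:34031812-34038399 (Rxrb) and chr1:167598384-167639623 (Rxrg), also on the plus strand. On the minus strand are Nr1h2 at chr7:44549616-44553951, Nr1h3 at chr2:91184061-91202834, Ppargc1a at chr5:51454250-51567726 and Ppargc1b at chr18:61298136-61400431. All 10 are protein-coding, and reads were counted over their exons.

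The 10 members spanned a wide range of levels. Per kilobase of exon, Nr1h2, the LXR found in most tissues, had the highest mean level over the 14 libraries (32 ± 4.51 CPM per kb, SD, n = 14), followed by Rxrb (13.4 ± 1.82), Rxra (11.8 ± 2.67), Ppargc1a (9.27 ± 4.20) and Ppard (7.30 ± 1.51). Nr1h3, the second LXR, was at 4.36 ± 1.297 CPM per kb, Pparg at 2.64 ± 1.102, Rxrg at 1.96 ± 0.60, Ppara at 1.34 ± 0.81 and Ppargc1b at 0.92 ± 0.47. Nr1h2 lay above Rxrb in all 14 libraries, with ranges that did not overlap. No other neighbours in this order were apart: the higher gene of each pair was the higher one in 9 to 13 of 14 libraries.

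**Figure D1:**
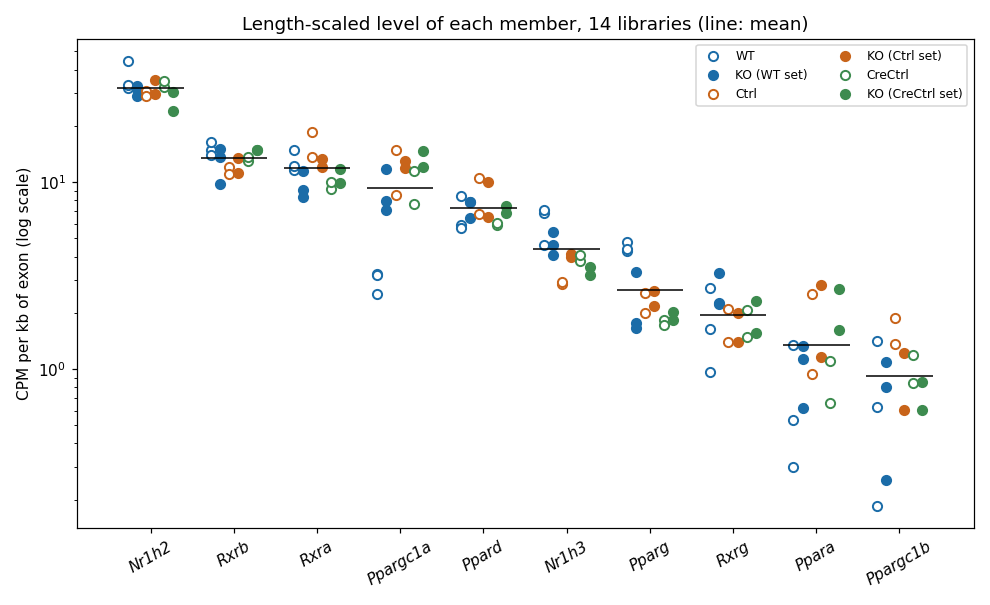
Level of each member in CPM per kilobase of exon (log axis) in the 14 libraries, ordered by the mean, which is the black line; open points are control mice, filled points KO mice, and colours the 3 sets. Nr1h2 lies above all others in every library, and the 3 WT points of Ppargc1a fall below the rest of its column.

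Members also differed in how much they varied from library to library. The highest library was 1.66 times the lowest for Rxrb, 1.84 times for Ppard and for Nr1h2, 2.23 times for Rxra, 2.47 times for Nr1h3 and 2.90 times for Pparg. The span was 3.38-fold for Rxrg, 5.89-fold for Ppargc1a, 9.42-fold for Ppara and 10.2-fold for Ppargc1b. The last 2 had few counts, from 14 for Ppara and from 9 for Ppargc1b in WT replicate 1.

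In KO vs. WT, 3 of the 10 members passed the test at an adjusted p under 0.05: Ppargc1a rose, and Pparg and Rxra fell. Of all 15428 genes tested, 35.1% were called in that comparison, 16.1% of them higher and 19% lower in KO as shares of the genes tested, so that 3 of 10 was no larger a share than in the table as a whole. Scaling by library size alone called 1716 genes higher and 3942 lower. Against the Ctrl mice no member was called (0 of 10, with 0 at an unadjusted p under 0.05 and 0 called by DESeq2). Of all genes, edgeR called 0% there and DESeq2 7.27%. Against the CreCtrl mice 0 of 10 were called, with 15.8% of all genes. Ppara alone was at an unadjusted p under 0.05 there. DESeq2 called it, where DESeq2 called 25.7% of all genes. The median log2 fold change of the members was -0.28 against WT, 0.08 against Ctrl and 0.11 against CreCtrl, beside -0.08, 0.01 and -0.02 over all genes tested.

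**Figure D2:**
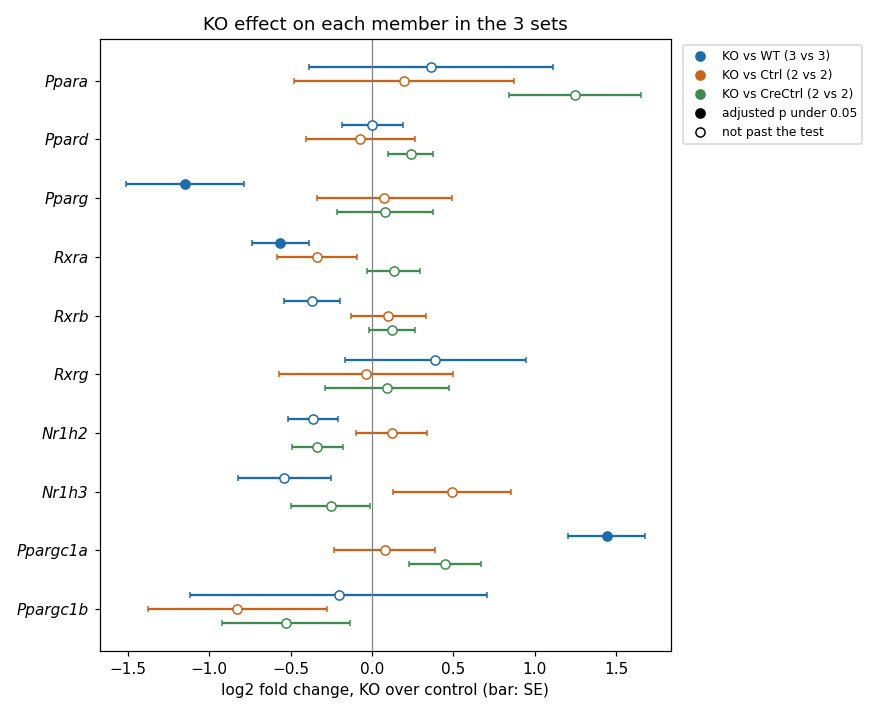
Log2 fold change of each member, KO over control, with its SE, by set (WT blue, Ctrl orange, CreCtrl green); filled points passed the test (adjusted p under 0.05). The 3 filled points are Ppargc1a at 1.44, Pparg at -1.15 and Rxra at -0.56, all in KO vs. WT.

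By the levels themselves, the KO and control libraries did not overlap for 3 members against WT (Ppargc1a above; Pparg and Rxra below) and for 3 against Ctrl (Nr1h3 above; Rxra and Ppargc1b below). Against CreCtrl they were apart for 6 (Ppara, Ppard, Rxrb and Ppargc1a above; Nr1h2 and Nr1h3 below). Over all genes tested the groups were apart for 53.2%, 41% and 72.1% (WT, Ctrl and CreCtrl set). No member lay above the controls, or below them, in all 3 sets. The share of all genes that did so was not counted.

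**Figure D3:**
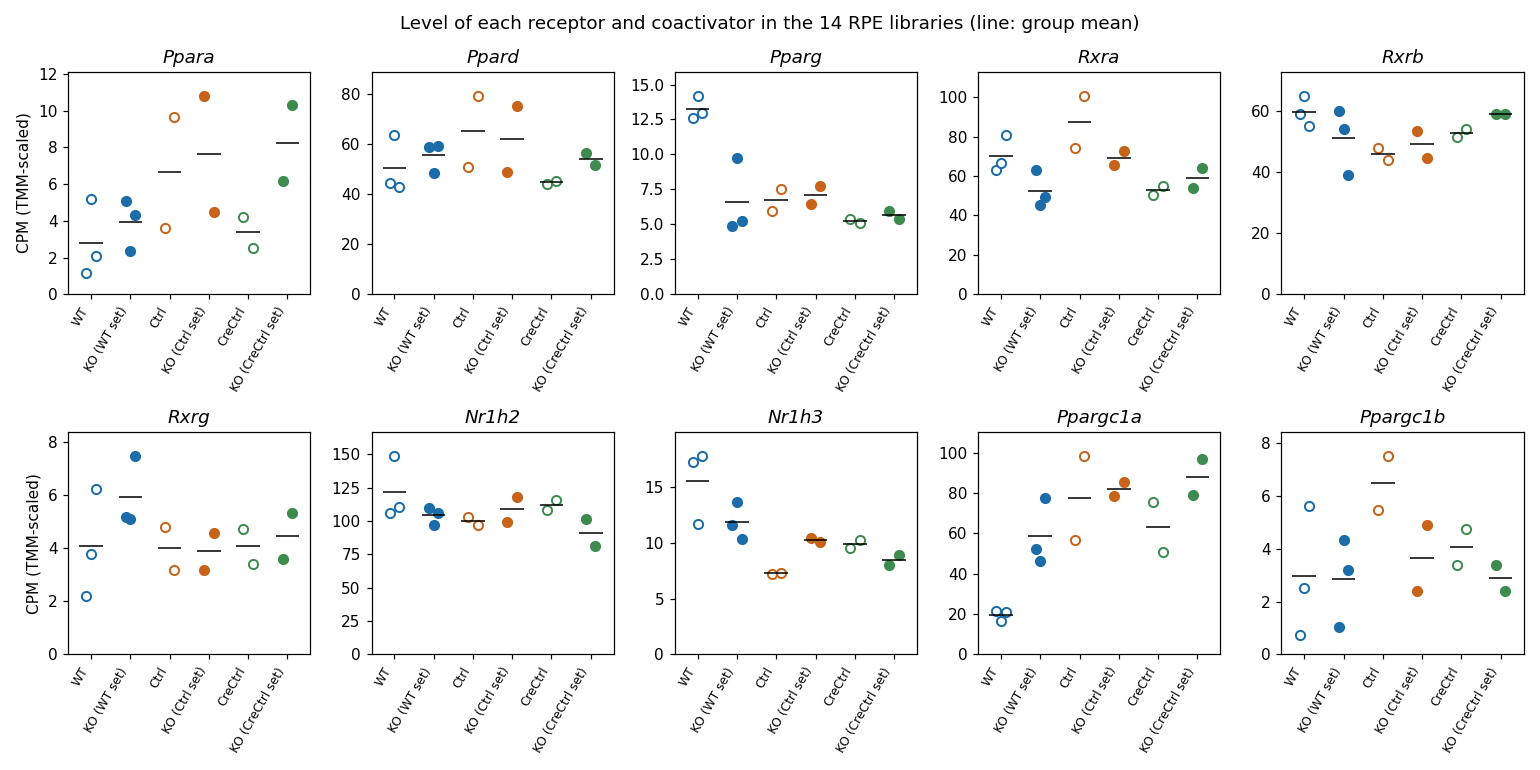
CPM of the 10 members in each library by group (linear axes from 0; open points control, filled points KO, black line the group mean; n = 3 for WT and its KO group, 2 for the other groups). The WT mice stand below every other library for Ppargc1a, at 16.7 to 21.3 CPM, and above every other library for Pparg, at 12.6 to 14.2.

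The 3 members called in KO vs. WT differ in the sequence before their start, which is shown so that their promoters can be read beside those results. The stretches are RefSeq sequence (GRCm38) from the 250 bases before an annotated start, with bases that any GENCODE M21 exon covers left out. They run 5′ to 3′ on the strand of the gene, and the capitals mark 3 short motifs searched on both strands: AGGTCA, the half-site that nuclear receptors bind; TGACG, the half-site of the cAMP response element; and GGGCGG, the GC box. No match overlaps another. Promoters were found for 9 of the 10 members. A single stretch is shown per gene, and which start these cells used was not tested. That of Ppargc1a lies at chr5:51567727-51567975 on the minus strand, outside the annotated gene. It ends 1 base before the start. Those of Rxra, at chr2:27676951-27677200 on the plus strand, and Pparg, at chr6:115421816-115422065 on the plus strand, lie between exons within the annotated span of their gene, downstream of an earlier annotated start.
Ppargc1a: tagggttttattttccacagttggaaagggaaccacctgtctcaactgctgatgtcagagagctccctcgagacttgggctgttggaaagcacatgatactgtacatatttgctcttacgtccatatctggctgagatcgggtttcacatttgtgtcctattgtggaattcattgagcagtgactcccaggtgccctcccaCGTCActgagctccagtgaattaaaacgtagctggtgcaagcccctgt
Rxra: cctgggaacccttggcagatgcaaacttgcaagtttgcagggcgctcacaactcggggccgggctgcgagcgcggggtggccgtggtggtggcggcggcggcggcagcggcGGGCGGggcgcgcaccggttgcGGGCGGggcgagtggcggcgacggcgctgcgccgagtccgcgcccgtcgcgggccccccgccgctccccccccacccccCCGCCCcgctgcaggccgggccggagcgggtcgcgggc
Pparg: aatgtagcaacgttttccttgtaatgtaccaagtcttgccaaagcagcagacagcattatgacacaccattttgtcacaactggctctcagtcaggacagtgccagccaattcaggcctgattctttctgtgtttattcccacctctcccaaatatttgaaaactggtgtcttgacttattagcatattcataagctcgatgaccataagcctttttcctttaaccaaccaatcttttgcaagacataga

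The Ppargc1a stretch, at 48.2% G and C, held 1 cAMP response half-site, on the opposite strand (CGTCA, first base 49 bases before the start). That motif is in 17.8% of the 32851 promoter windows of the same 250 bases in the RefSeq table. The Rxra stretch was 81.2% G and C, against a median of 52.4% over all windows, and held 3 GC boxes, which begin 139, 117 and 38 bases before the start; 32.7% of windows hold at least 1. The Pparg stretch, at 40.8% G and C, held none of the 3 motifs in these letters, and none of the 3 stretches held AGGTCA, which 14% of windows do. These are matches of letters and not measured binding.

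Ppargc1a encodes PGC-1 alpha, the inducible coactivator of the pair. It was at 21.3, 16.7 and 20.9 CPM in the 3 WT mice and at 52.1, 46.5 and 77.7 CPM in the 3 KO mice of that set. The lowest KO value was above the highest WT value. The log2 fold change was 1.44 (SE 0.24, adjusted p = 0.00181 by edgeR's quasi-likelihood test), a 2.72-fold rise. In the Ctrl set the values were 56.5 and 98.3 CPM in the controls and 78.4 and 85.3 in the KO mice, and both KO values lay between the 2 controls. The log2 fold change there was 0.08 (SE 0.31, adjusted p = 0.974). In the CreCtrl set the controls were at 75.4 and 50.5 CPM and the KO mice at 79.2 and 96.8, which were higher without passing the test (log2 fold change 0.45, SE 0.22, adjusted p = 0.176). Leaving out 1 library at a time moved this log2 fold change between 0.16, without CreCtrl replicate 2, and 0.76, without CreCtrl replicate 1.

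The effect of KO on Ppargc1a was larger in the WT set than in the Ctrl set, by 1.5 on the log2 scale (SE 0.39, adjusted p = 0.0428, edgeR's quasi-likelihood test of the difference). Ppargc1a was the only member called in that test (1 of 10, against 5.15% of all genes), and the adjusted p was 0.069 with RLE normalization and 0.0857 with library size alone. The WT set and the CreCtrl set differed by 1.1 (adjusted p = 0.184), where 0 of 10 members and 1.49% of all genes were called. For the Ctrl against the CreCtrl set 0 members and 0% of genes were called. The WT mice had the lowest 3 values of all 14 libraries, and the KO mice of the WT set, at 46.5 to 77.7 CPM, overlapped the 4 other controls at 50.5 to 98.3 CPM.

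With all 14 libraries in 1 fit, 7 KO and 7 control, and the set as covariate, Ppargc1a was the only member called (1 of 10, against 40.6% of all genes), at a log2 fold change of 0.79 (SE 0.24, adjusted p = 0.0159, edgeR's quasi-likelihood test). Without the WT set the fit of 4 KO against 4 controls gave 0.25 (adjusted p = 0.479) and 0 of 10 members called, where 7.1% of all genes were. The call over all 14 libraries thus rested on the WT set.

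The RPE and fibroblast sums differed between KO and control mice in all 3 sets, while Ppargc1a was called in the WT set alone. In the WT set 8 of 10 RPE markers rose and 10 of 10 fibroblast markers fell in KO. The RPE sums were 15056 to 22310 CPM in the WT libraries, lowest for Ppargc1a, and 71453 to 79965 in their KO mice. The fibroblast sums were 8060 to 8252 CPM against 278 to 787. In the CreCtrl set 1 RPE marker was called higher and 1 lower, and 8 of 10 had positive log2 fold changes. The RPE sums there were 48904 and 56283 CPM in the controls and 69752 and 75578 in the KO mice. Of the fibroblast markers 9 of 10 fell, with a median log2 fold change of -3.37 over the list. In the Ctrl set the RPE sums were 45476 and 46250 CPM in the controls and 69837 and 72120 in the KO mice, and the fibroblast sums 1245 and 2420 against 126 and 335. All 10 fibroblast markers had negative log2 fold changes there, with a median of -2.94; 7 were at an unadjusted p under 0.05, and 0 of 10 of either list were called. Ppargc1a was at a log2 fold change of 0.08 in that set, with controls at 56.5 and 98.3 CPM. The part of RPE or fibroblast content in the Ppargc1a difference was not tested.

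**Figure D4:**
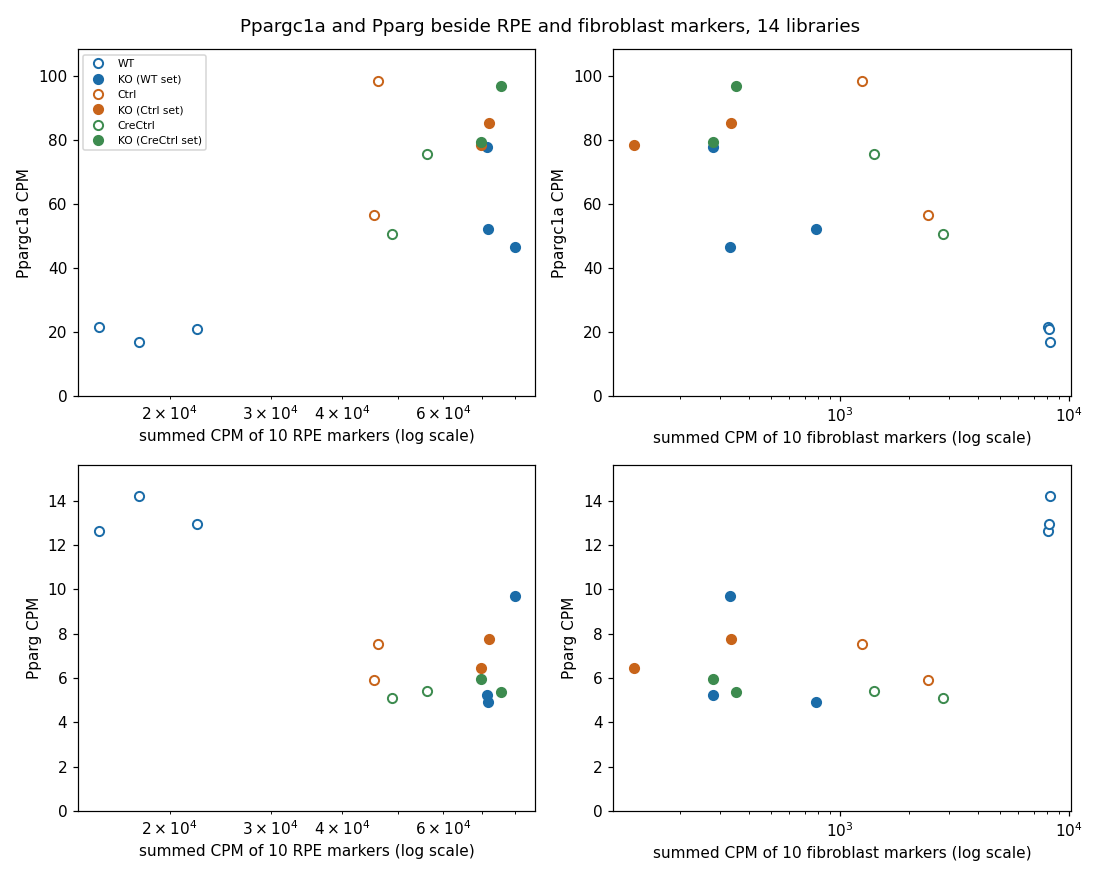
Ppargc1a (top) and Pparg (bottom) in CPM, on linear axes from 0, against the summed CPM of 10 RPE markers (left) and 10 fibroblast markers (right), on log axes, in the 14 libraries; open points control, filled points KO. The 3 WT libraries sit apart in all 4 panels, with fibroblast sums of 8060 to 8252 CPM against at most 2806 in the other 11.

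Ppargc1b encodes PGC-1 beta and was the lowest member. Its levels were 0.74, 2.5 and 5.62 CPM in the WT mice and 1.02, 4.33 and 3.21 in their KO mice, and the WT values enclosed the KO values. The values were 5.46 and 7.51 CPM in Ctrl against 2.41 and 4.89 in KO, and 3.38 and 4.76 in CreCtrl against 3.39 and 2.40 in KO. The log2 fold changes were -0.21, -0.83 and -0.53 against WT, Ctrl and CreCtrl, and the adjusted p lay at 0.354 or above.

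Pparg, the PPAR best known for fat cells and macrophages, was at 12.6, 14.2 and 13.0 CPM in the WT mice and at 4.90, 9.71 and 5.21 in their KO mice. All WT values lay above all KO values. The log2 fold change was -1.15 (SE 0.36, adjusted p = 0.0381, edgeR's quasi-likelihood test). Leaving out any 1 of the 6 libraries other than KO replicate 2 ended the call, with adjusted p of 0.0818 to 0.133; without KO replicate 2, the highest KO library, it was 0.0176. In the other sets Pparg was at 5.08 to 7.54 CPM in the controls and 5.39 to 7.76 in the KO mice, which overlapped, and the log2 fold changes were 0.08 (SE 0.41) and 0.08 (SE 0.30). The difference of the WT set's effect from the Ctrl set's was -1.08 (SE 0.51, adjusted p = 0.245) and from the CreCtrl set's -1.12 (SE 0.51, adjusted p = 0.33).

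The WT mice were thus the libraries in which Pparg was high, as they were those in which Ppargc1a was low. Of the 8 adipocyte markers, 2 (Adipoq and Lep) were at 0 in all 3 WT libraries. In all 3 of their KO libraries 5 were at 0, Adipoq and Lep among them. The 8 markers summed to 1.15 to 14.5 CPM in WT (mean 6.67) and to 0.067 to 2.65 (mean 1.56) in KO. The list was thus on average higher in WT, as Pparg was. The highest adipocyte sum, 144 CPM, was in Ctrl replicate 2, where Pparg was at 7.54 CPM. Of 10 myeloid markers, 9 fell and Csf1r rose in KO vs. WT, and their sum was 1007 to 1262 CPM in WT and 778 to 886 in KO. In KO vs. CreCtrl 8 of 10 myeloid and 9 of 10 fibroblast markers fell too, and Pparg was at a log2 fold change of 0.08. The control levels differed between these sets: fibroblast sums were 8060 to 8252 CPM in WT and 1404 to 2806 in CreCtrl. Myeloid sums were 728 to 801 CPM in CreCtrl. The part of adipocyte, fibroblast or myeloid RNA in the Pparg difference was not tested.

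Ppara, the PPAR of fatty acid oxidation, was at 1.15, 5.16 and 2.06 CPM in the WT mice and 5.10, 2.38 and 4.34 in their KO mice, and at 3.62 and 9.66 in Ctrl against 10.8 and 4.47 in KO. Both sets overlapped. In the CreCtrl set the controls were at 4.23 and 2.54 CPM and the KO mice at 6.20 and 10.3, a log2 difference of 1.25 (SE 0.41, adjusted p = 0.0714, edgeR's quasi-likelihood test). The call depended on the settings: DESeq2 gave an adjusted p of 0.0392, with CreCtrl replicate 1 left out it was 0.0306, and leaving out the first or the second KO mouse gave 0.031 or 0.421. Over all 14 libraries the log2 fold change was 0.61 (SE 0.39, adjusted p = 0.239). Rod transcripts also differed in that set: 10 of 10 rod markers fell, from sums of 941 and 4433 CPM in the CreCtrl mice to 225 and 352 in the KO mice.

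Ppard, the PPAR with the most even distribution over tissues, was the highest PPAR in all groups. It was at 44.6, 63.3 and 43.0 CPM in WT against 58.9, 48.2 and 59.0 in KO, at 50.7 and 79.2 in Ctrl against 48.6 and 75.1 in KO, and at 44.1 and 45.3 in CreCtrl against 56.3 and 51.6 in KO. The log2 fold changes were 0.00 (SE 0.19), -0.07 (SE 0.33) and 0.24 (SE 0.14), with adjusted p of 0.25 or above. The fold changes use scaling within a set and the CPM values scaling over 14 libraries, which is why the WT set's mean CPM differed slightly, 55.4 against 50.3, at a fitted difference of 0.00.

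Rxra, one of the 2 broadly expressed RXRs, was at 63.3, 66.7 and 80.9 CPM in the WT mice and at 63.0, 45.2 and 49.3 in their KO mice. The groups touched at 63.0 and 63.3. The log2 fold change was -0.56 (SE 0.17, adjusted p = 0.0345, edgeR's quasi-likelihood test), and the call was lost without WT replicate 2 (adjusted p = 0.0637), WT replicate 3 (0.129), KO replicate 2 (0.195) or KO replicate 3 (0.169). Values in the Ctrl set were 74.2 and 101 CPM in the controls and 65.5 and 72.9 in KO, lower in both KO mice at a log2 fold change of -0.34 (SE 0.24, adjusted p = 0.761). In the CreCtrl set they were 50.5 and 54.9 CPM against 54.1 and 64.2, which overlapped (log2 fold change 0.13, SE 0.16, adjusted p = 0.576). The difference between the effects of the WT set and the CreCtrl set was -0.59 (SE 0.27, adjusted p = 0.328).

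Rxrb, the second broadly expressed RXR, had levels of 55.2 to 65.0 CPM in WT and 39.0 to 59.9 in KO (log2 fold change -0.37, SE 0.17, adjusted p = 0.141). In the Ctrl set the ranges were 43.8 to 47.7 and 44.7 to 53.5 CPM (0.10, SE 0.23, adjusted p = 0.957), and in the CreCtrl set 51.4 to 54.2 and 58.87 to 58.90 (0.12, SE 0.14, adjusted p = 0.546). Rxrg, which is more restricted and known from cones and muscle, was at 2.22 to 6.24 CPM in WT and 5.10 to 7.49 in KO, and at 3.20 to 5.32 in the 8 libraries of the other sets. Its log2 fold changes were 0.39 (SE 0.56), -0.04 (SE 0.54) and 0.09 (SE 0.38), with adjusted p of 0.645 or above.

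Nr1h2 (LXR beta) was at 106 to 148.9 CPM in WT and 96.8 to 110 in KO (log2 fold change -0.36, SE 0.15, adjusted p = 0.104, edgeR's quasi-likelihood test). In the Ctrl set it was at 97.0 and 103 CPM in the controls and 99.6 and 118 in KO (0.12, SE 0.22, adjusted p = 0.935), and in the CreCtrl set at 108 and 116 CPM against 101 and 81.0 (-0.34, SE 0.16, adjusted p = 0.161). Nr1h3 (LXR alpha), prominent in macrophages, liver and fat, was at 17.2, 11.6 and 17.7 CPM in WT and 11.6, 13.6 and 10.3 in KO. The Ctrl set went the other way, with 7.17 and 7.32 CPM in the controls and 10.4 and 10.02 in KO, and the CreCtrl set had 9.49 and 10.2 against 8.01 and 8.90. The log2 fold changes of Nr1h3 were -0.54 (SE 0.28, adjusted p = 0.184), 0.49 (SE 0.36, adjusted p = 0.772) and -0.25 (SE 0.24, adjusted p = 0.473). The WT set's effect differed from the Ctrl set's by -0.89 (SE 0.40, adjusted p = 0.221). Nr1h3 overlaps Gm13783 on the same strand by 34 bases, and no other member shares exonic bases with another gene.

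Within each family 1 or 2 members held most of the length-scaled level. Ppard made up 64.8% ± 6.86 (SD, n = 14) of the PPAR sum, Pparg 23.5% ± 9.15 and Ppara 11.7% ± 6.38. Rxrb made up 49.5% ± 6.32 of the RXR sum, Rxra 43.2% ± 6.52 and Rxrg 7.32% ± 2.73. Nr1h2 made up 88.0% ± 3.06 of the LXR sum and Ppargc1a 89.4% ± 7.49 of the PGC-1 sum. In the WT mice Pparg held 38.3% ± 4.63 (n = 3) of the PPAR sum, and the group means elsewhere lay between 17.1% and 21.2%.

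A share does not depend on how libraries are scaled, and 4 shares were compared between KO and control mice by a two-sided exact permutation test within sets, with 720 arrangements and a smallest reachable p of 0.00278. The Ppargc1a share was higher in KO by 7.23 percentage points (exact p = 0.025, 0.1 after Benjamini-Hochberg adjustment over the 4), by 11, 5.73 and 4.91 points against WT, Ctrl and CreCtrl. The adjusted exact p did not pass 0.05. The Ppara share was higher by 5.45 points (exact p = 0.119, adjusted 0.159), the Rxra share lower at -3.92 points (exact p = 0.103, adjusted 0.159) and the Nr1h3 share different by 0.41 points (exact p = 0.731, adjusted 0.731).

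The genes of the table whose pattern over the 14 libraries was most like a member's were named by the smallest root mean square difference of log2 CPM, each centred on its own mean, among 14529 genes with a mean of at least 1 CPM. For Ppargc1a they were Fam49a (0.18) and Plpp6 (0.19), against a median of 0.88 over all genes compared. Pparg lay nearest to Gpx1 (0.21) and Mex3d (0.23), with a median of 0.75, and Rxra near Cyfip1 (0.14), with 0.59. For the members that varied little the distances were 0.09 for Nr1h2 and Trim26, and 0.12 for Ppard and Plekhm1 and for Rxrb and Usp40. Ppara (Snap29 at 0.38) and Ppargc1b (Edaradd at 0.39) had no gene closer than 0.38, and Rxrg lay at 0.22 from Rps19bp1 and Nr1h3 at 0.18 from Serpinh1, a collagen chaperone. Libraries, depth and marker content are shared by all these genes.

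Around the members, 101 genes in 7 lists were examined, of which 88, 86 and 88 were tested against WT, Ctrl and CreCtrl. Against WT 24 rose and 25 fell, where 35.1% of all genes were called. Against Ctrl 0 were called by edgeR (13 at an unadjusted p under 0.05), and DESeq2 called 10, where it called 7.27% of all genes. Against CreCtrl 5 rose and 17 fell, where 15.8% of all genes were called. Their median log2 fold changes were -0.04, 0.00 and 0.05. The same shares of all genes are the background for the counts of each list below. In KO vs. WT the corepressors (2 of 7) and the PGC-1 partners and regulators (4 of 15) had no larger a share called. In KO vs. CreCtrl this held for the PPAR targets (1 of 21), the coactivators (1 of 10) and the corepressors (0 of 7). The other lists had larger shares in these comparisons.

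**Figure D5:**
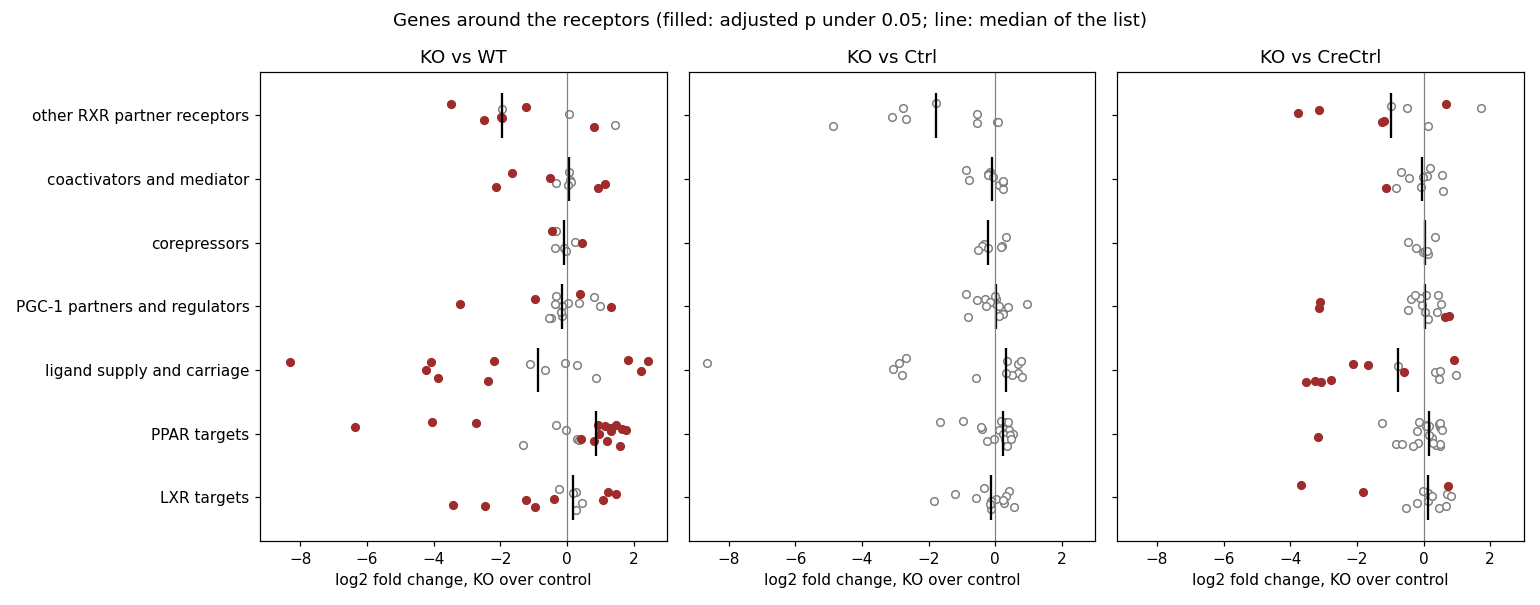
Log2 fold change, KO over control, of the genes of 7 lists around the receptors in each set; filled points passed the test (adjusted p under 0.05) and the black line is the median of a list. The PPAR targets shift to the right in KO vs. WT (median 0.87, against -0.08 over all genes tested) and lie near 0 in KO vs. CreCtrl (median 0.15).

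Of 20 PPAR targets tested in KO vs. WT, 12 rose and 3 fell. In KO vs. Ctrl 0 of 19 were called, at a median of 0.24. The RPE list rose beside them in KO vs. WT (8 of 10 markers, median log2 fold change 1.43). In KO vs. CreCtrl the targets' median was 0.15 and the RPE median 0.33. There 1 RPE marker was called higher and 1 lower, and 8 of 10 had positive log2 fold changes. The part of RPE content in the rise of the targets was not tested. Acadl, of mitochondrial beta-oxidation, was at 65.0 to 81.2 CPM in WT and 243 to 255 in KO, a log2 fold change of 1.59 (SE 0.13). The mitochondrial carrier Ucp2 changed by 0.92 (SE 0.17), and both passed edgeR's quasi-likelihood test. Against CreCtrl they were at 0.49 and 0.07, and against Ctrl at 0.42 and 0.47, neither past the test. Cd36, a fatty acid receptor, was the 1 target called against both WT and CreCtrl, and it fell in both. It was at 44.7 to 63.8 CPM in WT and 3.14 to 4.49 in KO, and at 11.5 and 27.9 in CreCtrl against 1.07 and 3.30. In the Ctrl set the values overlapped, at 25.6 and 80.5 CPM in the controls and 4.83 and 73.4 in KO (-0.44, SE 1.16). Endothelial markers (8 of 10 in each) and myeloid markers (9 and 8 of 10) fell in KO vs. WT and KO vs. CreCtrl. Their part in the Cd36 difference was not tested. The WT set's effect differed from the Ctrl set's for 7 of 21 targets (5.15% of all genes), Acadl among them, all with the higher effect in the WT set.

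Of 13 LXR targets, 3 rose and 5 fell in KO vs. WT, and 1 rose and 2 fell in KO vs. CreCtrl, with medians of 0.19 and 0.14. In KO vs. Ctrl the median was -0.12, with 6 positive, 7 negative and 0 called. Pltp, the phospholipid transfer protein, was at 824 to 1050 CPM in WT and 2535 to 3347 in KO (log2 fold change 1.46, SE 0.16, adjusted p = 0.00025), and at 0.56 (adjusted p = 0.588) and 0.66 (adjusted p = 0.0595) against Ctrl and CreCtrl by edgeR's quasi-likelihood test. Smpdl3a changed by 1.23 in KO vs. WT (adjusted p = 0.000613). Abcg1, a sterol exporter of macrophages, and Apod, a lipocalin, fell in both KO vs. WT (-2.46 and -3.43) and KO vs. CreCtrl (-1.82 and -3.67). In KO vs. Ctrl Abcg1 was at -0.32 and Apod at -1.83, neither past the test.

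Of 9 other partners of RXR tested, 5 fell and 1 rose in KO vs. WT, and 4 fell and 1 rose in KO vs. CreCtrl, with medians of -1.95 and -0.99 (-1.79 in KO vs. Ctrl, 0 called). The retinoic acid receptors Rara and Rarg fell in both, Rarg from 118 to 150 CPM in WT to 35.6 to 38.3 in KO (log2 fold change -1.95, SE 0.13, adjusted p = 3.82e-05, edgeR's quasi-likelihood test) and from 47.1 and 58.2 CPM in CreCtrl to 21.1 and 24.5 in KO (-1.24, adjusted p = 0.00804). The orphan receptors Nr4a1 and Nr4a2 fell as well, with log2 fold changes of -3.48 and -2.5 against WT and -3.13 and -3.76 against CreCtrl; both are immediate-early genes, and all 12 genes of the immediate-early list, of which Nr4a1 is one, fell in these comparisons. The thyroid hormone receptor Thrb rose in both (0.80, adjusted p = 0.0265, and 0.67, adjusted p = 0.0368). Thra, the highest of the list but for Nr4a1, was at 0.05 and 0.13 without passing the test. Against Ctrl Thrb was at 0.07 and Rara at -0.54. Rarg, Nr4a1 and Nr4a2 were at -1.79, -2.76 and -2.67 there, and none of these passed the test.

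Of 10 further coactivators, Pprc1 of the PGC-1 family among them, Ncoa1 and Kat2b rose and Ncoa3, Carm1 and Pprc1 fell in KO vs. WT. Ncoa3 alone was called in KO vs. CreCtrl (medians 0.05 and -0.05, and -0.11 against Ctrl). Ncoa3, a steroid receptor coactivator, was at 73.3 to 87.7 CPM in WT and 12.2 to 28.8 in KO (log2 fold change -2.12, SE 0.29, adjusted p = 0.000658, edgeR's quasi-likelihood test), and at 41.0 and 42.4 in CreCtrl against 19.2 and 19.7 in KO (-1.13, SE 0.15, adjusted p = 0.00762). Ncoa3 was at -0.79 in KO vs. Ctrl without passing the test. Ncoa1 was at 99.8 to 105 CPM in WT against 212 to 219 in KO (0.92, SE 0.11). Of 7 corepressors, 1 rose and 1 fell in KO vs. WT, and 0 were called in KO vs. CreCtrl (medians -0.09 and 0.04, and -0.23 against Ctrl). Hdac3, a histone deacetylase, rose by 0.46 on the log2 scale in KO vs. WT. It was at -0.01 against CreCtrl and 0.21 against Ctrl, neither past the test.

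Among 15 partners and regulators of PGC-1, Esrra and Prkaa2 rose and Gabpb1 and Mef2c fell in KO vs. WT, and Tfam and Prkaa2 rose and Esrrb and Mef2c fell in KO vs. CreCtrl, with medians of -0.14 and 0.05, and 0.01 against Ctrl. Prkaa2, a catalytic subunit of AMP-activated kinase, rose from 13.7 to 20.1 CPM in WT to 42.6 to 57.1 in KO (log2 fold change 1.31, SE 0.22, adjusted p = 0.00208, edgeR's quasi-likelihood test) and from 36.9 and 46.5 in CreCtrl to 70.5 and 75.6 in KO (0.77, SE 0.17, adjusted p = 0.0278). Mef2c, a muscle and vessel transcription factor, fell by 3.22 and 3.10 on the log2 scale. Against Ctrl Prkaa2 was at 0.11 (SE 0.34) and Mef2c at -0.54 (SE 0.49), neither past the test. Esrra, the oestrogen-related receptor that PGC-1 alpha binds, was at 60.2 to 70.7 CPM in WT and 88.9 to 101 in KO (0.39, adjusted p = 0.0324). Its log2 fold change was -0.06 against CreCtrl and 0.23 against Ctrl, neither past the test.

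Of 14 genes of ligand supply and carriage tested in KO vs. WT, 3 rose and 6 fell, and of 13 in KO vs. CreCtrl, 1 rose and 7 fell, with medians of -0.88 and -0.77. In KO vs. Ctrl the median was 0.33, with 7 of 13 positive and 0 called. Rdh10, a retinol dehydrogenase of the RPE, rose in both, from 426 to 652 CPM in WT to 2613 to 2725 in KO (log2 fold change 2.23, SE 0.18, adjusted p = 6.56e-05, edgeR's quasi-likelihood test) and from 1912 and 2348 in CreCtrl to 3781 and 4463 in KO (0.92, SE 0.23, adjusted p = 0.0399). Ptgds, a prostaglandin synthase, rose by 2.44 in KO vs. WT and was at 0.36 in KO vs. CreCtrl. Rdh10 was at 0.33 and Ptgds at 0.81 in KO vs. Ctrl, neither past the test. Aldh1a2, which makes retinoic acid, the retinoic acid carrier Crabp2 and the fatty acid carriers Fabp4 and Fabp5 fell in both, while against Ctrl Fabp4 was at 0.67. Aldh1a2 was at 138 to 149.4 CPM in WT and 3.21 to 16.0 in KO, and at 31.1 and 49.4 in CreCtrl against 3.68 and 8.27. These 4 fell together with the fibroblast list, 10 of 10 markers in KO vs. WT and 9 of 10 in KO vs. CreCtrl. Of 10 myeloid markers, 9 and 8 fell in the same comparisons. In KO vs. Ctrl the fibroblast median was -2.94 and the myeloid median 0.20. Aldh1a2, Crabp2 and Fabp5 were at -2.80, -2.68 and -0.57 in that set, none past the test. The part of fibroblast or myeloid RNA in these genes was not tested.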

How the data were processed

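The authors prepared stranded poly(A) libraries of RPE cells of 14 mice, sequenced them as paired 50-base reads on a NovaSeq6000 and aligned them to GRCm38 with STAR 2.5.2. The deposited table holds whole-number counts of reads per Ensembl gene and library, not normalized. The submitters' processing notes also list Cufflinks 2.1.1, HTSeq 0.11.2 and bcl2fastq 2.19, whose roles are not stated, and the strand setting and annotation release of the counting are not given in the sources used here. Of 42687 genes, 42329 were found in GENCODE M21, which gave names and exon lengths. Every column belonged to a library, and no 2 libraries held identical counts. The samples were titled as separate mice.

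Within each set, KO and control libraries were compared with edgeR's quasi-likelihood test (edgeR 4.0.16, R 4.3.3) on the deposited counts, with TMM normalization, filterByExpr and Benjamini-Hochberg adjustment over all genes tested; called means an adjusted p under 0.05. Further fits took all 14 libraries with the set as covariate, or as 6 groups to test differences between sets. Levels are CPM with TMM factors over 14 libraries, and CPM per kb divides them by the union of a gene's exons, so that a level per kb is too low where long exons are unused. Such p-values cover the spread between mice. With 3 against 3 an exact permutation of 1 gene cannot go below 0.1, and with 2 against 2 not below 0.333. The scripts were tested on simulated counts.

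Alternatives were DESeq2 1.42.0, RLE normalization, library size alone, other filters, a replicate block, each library left out in turn and, chosen after seeing the data, the fit without the WT set. The members and all lists were chosen with earlier results of these data known. The named genes beside the members are Clic4, the 4 of each list with the highest CPM per kb and any called in the same direction in KO vs. WT and KO vs. CreCtrl, and the 2 nearest genes of a member; Pprc1, Gabpb1, Tfam and Esrrb were named after their values were seen, without values. Promoter sequences came from RefSeq for GRCm38, and the motifs were chosen as textbook sites. Results for some genes that these rules name are not reported here.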

Additional observations from a re-analysis of the deposited data

Results flagged for a closer look

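The effect of KO on Ppargc1a was larger in the WT set than in the Ctrl set, by 1.5 on the log2 scale (edgeR's quasi-likelihood test of the difference, adjusted p = 0.0428), with 1.44 in the WT set and 0.08 in the Ctrl set. The WT mice had the lowest Ppargc1a of the 14 libraries, and control genotype and set cannot be told apart.

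Ppard was at 75.1 CPM in KO replicate 2 of the Ctrl set, farther from the other 6 KO libraries than Dixon's test allows for 7 values. A control library of the same set, Ctrl replicate 2, was at 79.2 CPM. About 1 in 20 groups is singled out by chance, and 10 members were examined.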

How the results depend on the processing

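The Ppargc1a call in KO vs. WT held under every alternative run, and that over all 14 libraries under all but the fit without the WT set. The number of members called in KO vs. WT, 3 as reported, was 5 with library size alone (which added Rxrb and Nr1h2 and moved the median of all genes from -0.08 to -0.32, and to -0.11 and -0.24 against Ctrl and CreCtrl), 1 with all genes of at least 1 count, 1 with the replicate block and 1 to 2 with each library left out. In KO vs. CreCtrl it was 0 as reported, 1 by DESeq2, 1 with genes of at least 1 count, 1 with the block (Ppara in each) and 0 to 2 with a library left out. Over all 14 libraries it was 3 with library size alone, 2 with at least 10 counts in every library and 0 without the WT set. Members with a different effect in the WT set and the Ctrl set numbered 0 with RLE normalization and 0 with library size alone. Of the genes in the related lists, KO vs. Ctrl called 10 by DESeq2, 11 with at least 1 count, 3 with 6 groups and 0 to 2 with a library left out; KO vs. CreCtrl called 7 with 6 groups and 14 to 37 with a library left out, fewest without KO replicate 2 and most without CreCtrl replicate 1; and the fit over all 14 libraries called 8 without the WT set. With a library left out the KO difference in share ranged from 2.77 to 8.14 points for Ppara, -0.51 to 0.95 for Nr1h3 and 5.21 to 9.44 for Ppargc1a, whose adjusted exact p was 0.0111 without WT replicate 1; that of Ppara was 0.0444 without KO replicate 2 of the Ctrl set.

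Log2 fold changes of members that were not called changed sign as follows. With library size alone Ppard was at -0.24 in KO vs. WT and -0.15 over all 14 libraries, Rxrg at -0.023 over all 14 libraries, Pparg, Rxrb and Ppargc1a at -0.031, -0.022 and -0.017 in KO vs. Ctrl, and Pparg, Rxra, Rxrb and Rxrg at -0.14, -0.094, -0.10 and -0.13 in KO vs. CreCtrl. Without the WT set Pparg was at 0.061, Rxrb at 0.093 and Nr1h3 at 0.10. With the block Ppargc1b was at 0.0019 in KO vs. WT. With a library left out the ranges in KO vs. WT were -0.0059 to 1.15 for Ppara, -0.091 to 0.20 for Ppard and -0.66 to 0.68 for Ppargc1b. Those in KO vs. Ctrl were -0.58 to 1.07 for Ppara, -0.42 to 0.28 for Ppard, -0.073 to 0.25 for Pparg, -0.039 to 0.22 for Rxrb, -0.32 to 0.30 for Rxrg, -0.0048 to 0.24 for Nr1h2 and -0.25 to 0.52 for Ppargc1a. Those in KO vs. CreCtrl were -0.015 to 0.30 for Rxra and -0.24 to 0.39 for Rxrg, and that of Rxrb over all 14 libraries was -0.10 to 0.031. The cause of these changes was not tested.

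Whether replicate numbers paired the mice could not be decided. Deviations of same-numbered libraries correlated at -0.02, 0.04 and 0.13 (WT set), 0.00069 (Ctrl set) and 0.13 (CreCtrl set) over 17662 genes. The threshold for pairing was a correlation of 0.1. Not every WT-set library correlated best with its own number, although WT replicate 3 and KO replicate 3 did. Where a group held 2 mice, the correlations of a set differed only in sign, so that they cannot exclude pairing. With the block the adjusted p of Pparg in KO vs. WT was 0.0519 and that of Rxra 0.0538. Where leaving out a library left 1 mouse in a group, that mouse was assumed to vary like the others. The shallow WT libraries and the 2 mice a group in the other sets limit what could be detected for Ppara, Rxrg and Ppargc1b.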
